A study of Rattus norvegicus with 4 samples.

Results

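The genes described here encode the proteins of the cytosolic ribosome, measured in cultured rat Sertoli cells treated with cAMP and in untreated cells. They were taken as every probe set with a single platform gene symbol of the form Rpl or Rps plus a number, together with Rplp0, Rplp1, Rplp2 and Rpsa. S6 kinase genes and pseudogene names were left out, and the probe set with the highest mean over the 4 arrays stood for each gene. This gave 48 genes of the 14217 genes named on the array, with 28 large-subunit genes, 13 small-subunit genes, the stalk gene Rplp0 and 6 paralogs with names such as Rpl7l1. Rplp1 and Rplp2 were not among the genes named by a single symbol, and 30 further probe sets that carry several ribosomal protein symbols are given below without a gene name. Sertoli cells are the supporting epithelial cells of the testis. They were prepared from male Sprague-Dawley rats 20 days old and cultured without serum for 72 h, as 2 cAMP samples and 2 control samples without treatment, each on a 1-colour Affymetrix array. The labels call the samples biological replicates but do not say whether they came from separate preparations, so the p-values below reflect variation among these 4 samples only, and that variation may be technical. The labels used here state neither the dose nor the form of cAMP.

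The cytosolic ribosome joins a small subunit, which decodes the mRNA, to a large subunit, which forms the peptide bond, and the stalk of the large subunit recruits translation factors. Mammalian ribosomal protein mRNAs are abundant, short and made in matched amounts. They begin with a terminal oligopyrimidine tract, a C followed by a run of C and T at the cap, through which mTORC1 and LARP1 control their translation. In Sertoli cells cAMP is the messenger of follicle-stimulating hormone, which also acts on protein synthesis in these cells.

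That tract is the feature most ribosomal protein genes share, so the start of the 3 genes that passed the test below is shown with 3 further subunit genes and 3 paralogs for contrast. Sequences are from RefSeq, build GRCr8. Each line holds 15 bases either side of the annotated transcript start, read along the transcript. Capitals mark the longest C-led run of C and T within 10 bases of the start.
Rpl35a (chr11:81235007-81235036, minus strand): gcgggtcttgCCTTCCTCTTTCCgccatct
Rpl22 (chr5:168117946-168117975, plus strand): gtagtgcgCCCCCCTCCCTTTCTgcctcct
Rpl14 (chr8:129163605-129163634, plus strand): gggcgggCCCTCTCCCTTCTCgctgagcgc
Rplp0 (chr12:46718376-46718405, minus strand): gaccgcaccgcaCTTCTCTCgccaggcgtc
Rpl19 (chr10:83519049-83519078, plus strand): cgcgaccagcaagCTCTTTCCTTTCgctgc
Rps15 (chr7:10068101-10068130, minus strand): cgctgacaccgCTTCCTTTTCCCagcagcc
Rpl7l1 (chr9:21695703-21695732, plus strand): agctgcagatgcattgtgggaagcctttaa
Rps27l (chr8:76443643-76443672, plus strand): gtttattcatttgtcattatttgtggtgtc
Rpl3l (chr10:14258431-14258460, plus strand): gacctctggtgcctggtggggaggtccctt

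Of the 48 genes, 43 had a start region in the RefSeq table. A C followed by at least 4 further C or T lay within 10 bases of the annotated start, on the transcript strand, in 26 of them (60.5%), and in 23.7% of all 33469 start regions. The genes shown above were picked and do not stand for a clean split between subunit genes and paralogs. The paralog Rps4y2 had the tract, whereas subunit genes such as Rpl3, Rpl11 and Rps3 did not by this rule. Of these 43, the 42 whose expression was tested split into 26 with the tract, with a median log2 difference between cAMP and control of -0.31, and 16 without it, with a median of -0.24. The ranges of the 2 sets overlapped, -0.68 to 0.12 with the tract and -0.52 to 0.18 without. Other motifs were searched on both strands of the 300 bases from 250 before to 50 after the start. The palindrome TGACGTCA, the full site bound by CREB, was in 2 of the 43 regions (Rpl26 and Rps13), 4.65%, and in 1.83% of all regions. Its core TGACG, which every full site holds, was in 17 of 43 (39.5%) and in 21.2% of all. The ETS-type motif CCGGAAG was in 10 of 43 (23.3%, and 8.75% of all), AAGATGGC in 4 (9.30%, and 3.17% of all) and TATAAA in 6 (14.0%, and 14.2% of all). A match describes these letters only, and no binding was measured.

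Nearly all ribosomal protein genes had somewhat lower signals in cAMP-treated cells, by small amounts. On the log2(signal + 16) scale, 43 of the 46 tested members had a difference, cAMP minus control, below 0, with a median of -0.28; under quantile normalization 38 of 46 lay below 0, with a median of -0.085. The reported median is a signal 17.6% lower, and the median over all 18625 tested probe sets was -0.037. Among all tested probe sets 53.6% lay below 0. Both cAMP arrays lay below both control arrays for 40 of the 46 members (87.0%), and for 31.1% of all tested probe sets. Few members passed the test for a single gene. By limma, with p-values adjusted over all probe sets by the Benjamini-Hochberg method, 3 of 46 members were lower (6.52%, against a background of 6.39%). None was higher, 0 also at an unadjusted p under 0.05, while 7.29% of all probe sets were higher by limma. The share called is therefore near that of the array as a whole. At an unadjusted p under 0.05 by limma, 24 members were lower (52.2%, against 14.5% of all probe sets). In RNA from a whole culture, fewer cells of a type and less RNA per cell cannot be told apart.

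**Figure D1:**
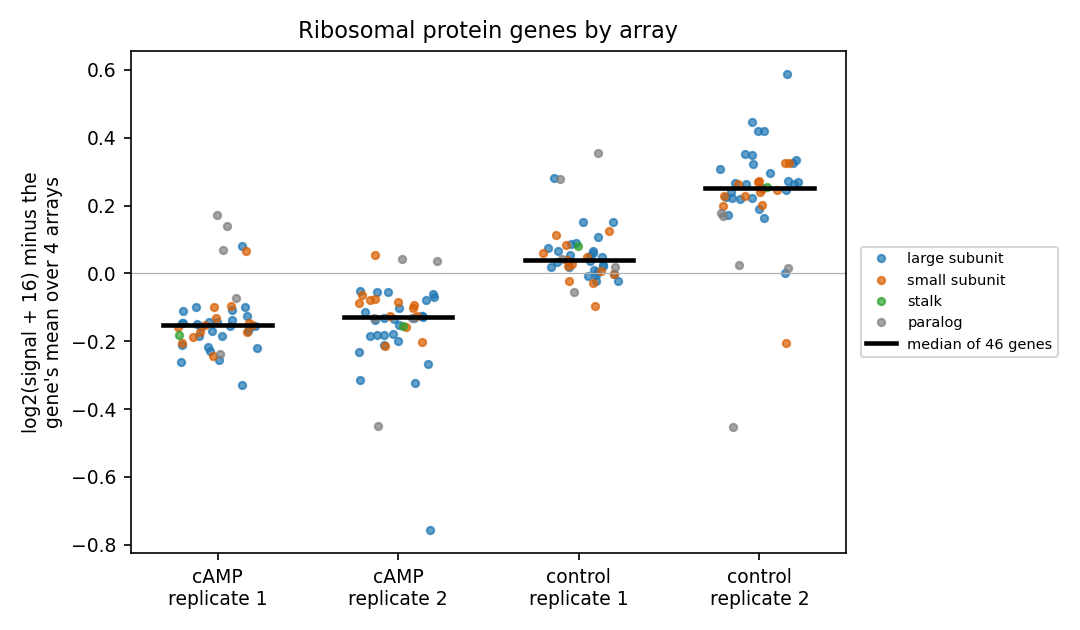
Each point is 1 of the 46 tested ribosomal protein genes on 1 array, as log2(signal + 16) minus that gene's mean over the 4 arrays, with black bars at the medians. The medians were -0.15 and -0.13 on the cAMP arrays, and 0.039 and 0.25 on the control arrays, so control replicate 2 stood furthest from the others. These are deposited signals without further normalization, and under quantile normalization 8 of the 46 members are above 0 in cAMP minus control.

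The 3 members that passed belong to the large subunit. Rpl22 is an RNA-binding protein on the outer face of the large subunit. Its signal was 3629 and 3787 in cAMP cells, against 5075 and 6228 in control cells, a log2 difference of -0.60 ± 0.13 (SE, adjusted p by limma = 0.0218). Both cAMP values lay below both control values. Rpl35a, which is mutated in some human families with Diamond-Blackfan anaemia, had 5303 and 5081 in cAMP cells, against 7025 and 8466 in control cells (-0.57 ± 0.12, adjusted p by limma = 0.0213). Rpl14 had 3907 and 3853 in cAMP cells, against 4880 and 5711 in control cells (-0.44 ± 0.12, adjusted p by limma = 0.0461). In all 3 genes the cAMP pair differed by far less than the control pair did. Control replicate 2 was the higher control array in each, as in all 38 members with a mean signal of 1000 or more. With 1 array left out, a group holds 1 array and is assumed to vary like the pair left in the other group. Each of the 3 calls was lost without cAMP replicate 1, where their adjusted p by limma was 0.196 to 0.324, and without cAMP replicate 2, where it was 0.177 to 0.339. Their differences stayed about as large, at -0.57 and -0.63 for Rpl22, -0.60 and -0.54 for Rpl35a, and -0.45 and -0.43 for Rpl14, while the SE of Rpl22 was 0.21 in both fits. The calls were kept with 1 control array left out, where the spread came from the cAMP pair and the SE of Rpl22 was 0.084 and 0.086. All 3 were lost without the filter on dim probe sets (adjusted p by limma 0.0850 to 0.139) and without the intensity trend (0.0853 to 0.152), and Rpl14 also with the mean of its probe sets (-0.37, adjusted p by limma = 0.197).

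Rpl5 and Rpl11, which carry 5S rRNA into the large subunit and can bind Mdm2, had similar differences and did not pass. Rpl5 had 5267 and 4694 in cAMP cells, against 6151 and 7870 in control cells (-0.48 ± 0.14, adjusted p by limma = 0.0652). Rpl11 had 4070 and 4435 in cAMP cells, against 5191 and 6038 in control cells (-0.40 ± 0.12, adjusted p by limma = 0.0700). The groups did not overlap for either gene. Rpl23 (-0.42 ± 0.12) and Rpl35 (-0.41 ± 0.13) were close in size and did not pass either. Rpl39, a small protein of the peptide exit tunnel, had the most negative difference of the tested members with the widest error. Its probe set read 146.0 and 74.6 in cAMP cells, against 146.8 and 214.4 in control cells (-0.68 ± 0.30, adjusted p by limma = 0.197), so cAMP replicate 1 was nearly level with control replicate 1.

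At the other end of the large subunit, Rpl3, a protein near the peptidyl transferase centre, had 5958 and 6250 in cAMP cells, against 6581 and 7283 in control cells (-0.18 ± 0.10). Rpl13a, widely used as a reference gene in PCR, had 5729 and 5849 in cAMP cells, against 6125 and 6927 in control cells (-0.17 ± 0.11). Neither passed, and under quantile normalization Rpl3 stood at 0.066 and Rpl13a at 0.073, above 0. The remaining large-subunit genes with a mean signal of 1000 or more, among them the bright Rpl7a (-0.25 ± 0.12), lay between Rpl22 and Rpl13a. Of the 27 tested large-subunit members, 27 had both cAMP arrays below both control arrays, against 31.1% of all tested probe sets. The median difference of these members was -0.29. The stalk gene Rplp0, another common reference gene, had 5129 and 5220 in cAMP cells, against 6152 and 6937 in control cells (-0.34 ± 0.11, adjusted p by limma = 0.0850).

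None of the 13 small-subunit members passed by limma, and their median was -0.25. At an unadjusted p under 0.05 by limma, 5 were lower (38.5%, against 14.5% of all tested probe sets). Both cAMP arrays lay below both control arrays in 11 of the 13 (84.6%, against 31.1% of all tested probe sets). The difference between the subunits was not tested. Rps3, which lies at the mRNA entry channel, had 4733 and 4636 in cAMP cells, against 5777 and 6408 in control cells (-0.38 ± 0.11, adjusted p by limma = 0.0572). Rps15a had 4996 and 5164 in cAMP cells, against 6281 and 6814 in control cells (-0.36 ± 0.10, adjusted p by limma = 0.0577). In both genes the cAMP values lay well below the control values, just short of the threshold. Rps6, the ribosomal target of the S6 kinases, had 5003 and 5212 in cAMP cells, against 5448 and 6711 in control cells (-0.24 ± 0.13, adjusted p by limma = 0.259). Rpsa, also known as the laminin receptor precursor, had 4372 and 4435 in cAMP cells, against 4617 and 5397 in control cells (-0.18 ± 0.12). Rps23, which sits at the decoding centre, was the exception among bright members: it had 6929 and 7032 in cAMP cells, against 6924 and 8934 in control cells. Control replicate 1 was thus level with both cAMP arrays, and the difference (-0.17 ± 0.13) was 0.083 under quantile normalization. Rps29 had 6711 and 7032 in cAMP cells, against 7355 and 8443 in control cells (-0.20 ± 0.11, and 0.022 under quantile normalization).

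**Figure D2:**
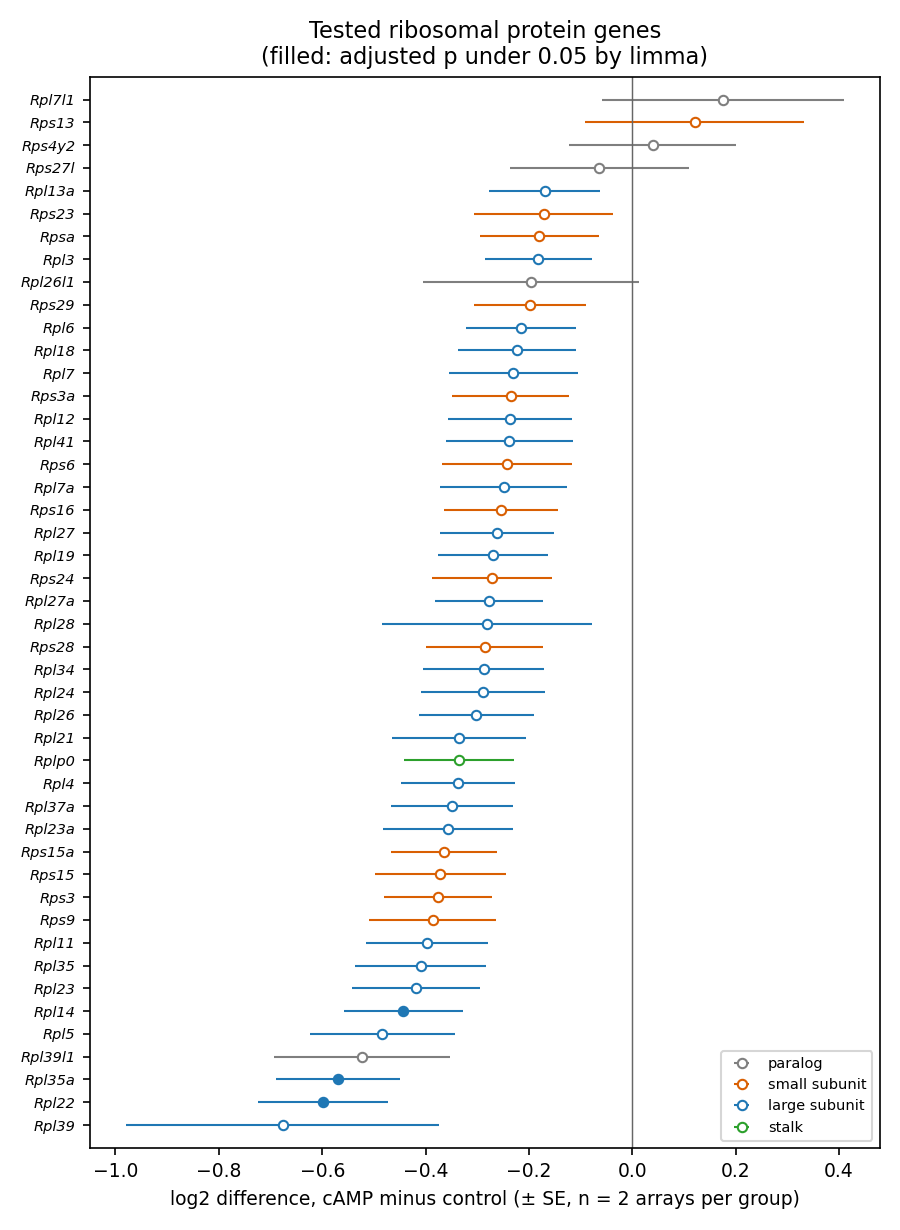
The log2 difference, cAMP minus control, with its standard error is shown for each of the 46 tested members (n = 2 arrays per group), coloured by subunit and filled where the adjusted p by limma was under 0.05. The 3 filled points are Rpl35a, Rpl22 and Rpl14, and 3 members lie above 0, namely Rpl7l1, Rps13 and Rps4y2; under quantile normalization 8 members do.

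The paralogs gave mixed values. Of the 5 tested, 0 passed by limma, and the median was -0.064. At an unadjusted p under 0.05 by limma, 1 was lower (20%, against 14.5% of all tested probe sets). In 1 of them both cAMP arrays lay below both control arrays (20%, against 31.1% of all tested probe sets). Rpl7l1, a relative of Rpl7, had 562.9 and 522.9 in cAMP cells, against 621.8 and 367.6 in control cells (0.18 ± 0.23). The control pair enclosed both cAMP values, whereas Rpl7 itself had 4490 and 4846 in cAMP cells, against 4975 and 6025 in control cells (-0.23 ± 0.12). With control replicate 1 left out the Rpl7l1 difference was 0.54, and with control replicate 2 left out it was -0.19, so its sign rested on which single control array was used. Rps27l, which in human cells is a target of p53, had 135.0 and 115.3 in cAMP cells, against 132.1 and 130.3 in control cells (-0.064 ± 0.17). Rps4y2 had 370.5 and 296.9 in cAMP cells, against 314.2 and 330.9 in control cells (0.039 ± 0.16). Rpl39l1 was the paralog without overlap, at 525.5 and 400.2 in cAMP cells, against 711.7 and 623.6 in control cells (-0.52 ± 0.17, adjusted p by limma = 0.0907). Rpl26l1, at 37.8 and 49.3 in cAMP cells against 48.2 and 55.8 in control cells, overlapped (-0.20 ± 0.21), while its parent Rpl26 had 6254 and 6431 in cAMP cells, against 7229 and 8460 in control cells (-0.30 ± 0.11). Rpl3l, the paralog of striated muscle, was below the filter on dim probe sets with 4.6 and 2.5 in cAMP cells, against 16.9 and 3.6 in control cells. The difference between paralogs and other members was not tested.

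Members were also described by signal strength. A mean signal of 1000, a cutoff chosen after the values were seen, left 38 members above it, from 3990 to 7455, and 10 below it. The 38 bright members all had a negative difference, from -0.60 to -0.17, although under quantile normalization 5 of them, Rpl3, Rpl6 (0.030), Rpl13a, Rps23 and Rps29, stood above 0. Both cAMP arrays lay below both control arrays in 37 of the 38 (97.4%), Rps23 being the exception. That share was 31.1% over all tested probe sets and 52.4% over the bright ones of no ribosomal protein gene described below. The standard deviation of the 38 differences was 0.10, and the median standard error of a single difference was 0.12. That error holds the shift between the control arrays, described below, that these genes share. These values therefore cannot show how alike the differences were. Across these 38 genes, which share arrays and are no independent replicates, the difference correlated with the mean log2 signal at r = 0.34 (Spearman's rho = 0.41), so the brightest members tended to have differences closer to 0. Of the 10 dim members, 8 were tested, and their median was -0.13. Besides 5 of the paralogs and Rpl39 these were Rpl28 (-0.28 ± 0.20) and Rps13, which read 33.6 and 33.2 in cAMP cells against 34.2 and 25.1 in control cells (0.12 ± 0.21). Rpl30 was below the filter, with 12.4 and 10.2 in cAMP cells against 16.5 and 18.2 in control cells, where 14.2 was the highest signal of any Bacillus control probe set and was taken as background. What part of the transcript these dim probe sets detect was not examined.

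Bright probe sets of no ribosomal protein gene were examined beside the members. Of 143 such probe sets with a mean signal of 3000 or more, a cutoff also chosen after the values were seen, 93 had a negative difference and 75 (52.4%) had both cAMP arrays below both control arrays. Their median was -0.12, and 9 were higher and 11 lower by limma. The 803 between 1000 and 3000 had a median of 0.0061. The part of brightness in the members' result was not tested. Quantile normalization gives each array the same distribution of signals. Under it the 46 members had the median of -0.085 given above, and 5 were lower by limma (Rpl22, Rpl35a, Rpl14, Rps9 and Rpl35). The share of all tested probe sets lower in that fit is not given here, so this count is not read against a background.

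**Figure D3:**
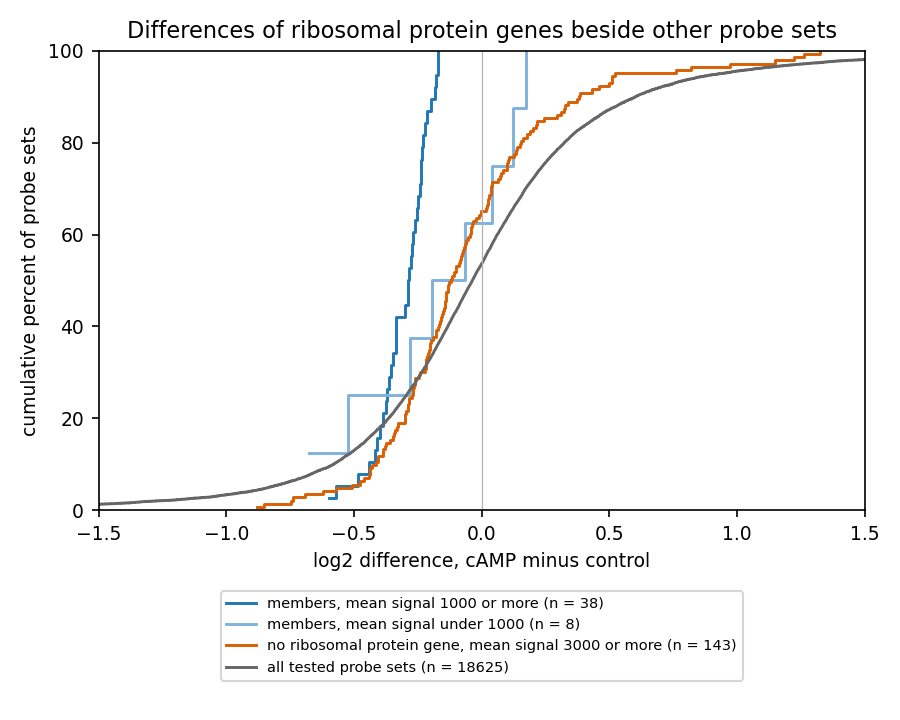
Cumulative percent of probe sets by log2 difference, cAMP minus control, without further normalization, for bright and dim ribosomal protein genes, for bright probe sets of no ribosomal protein gene and for all tested probe sets. The curve of the 38 bright members runs from -0.60 to -0.17, whereas the other curves cross 0; under quantile normalization 5 of these bright members, Rpl3, Rpl6, Rpl13a, Rps23 and Rps29, stood above 0.

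The control arrays differed from each other in the same genes. Control replicate 2 was above control replicate 1 for 41 of 46 tested members and for all 38 bright ones, by a median of 0.22 on the log2 scale over the 46, or 16.8%. Over all tested probe sets the median of that difference was -0.0007, and over the 143 bright probe sets of no ribosomal protein gene it was 0.081. The cAMP arrays differed by a median of 0.02 over the members. The 48 members made up 3.34% and 3.41% of the total signal on the cAMP arrays, against 3.84% and 4.41% on control replicates 1 and 2. The gap between the control arrays was thus larger than that between control replicate 1 and either cAMP array. Actin probe sets at the 3' and 5' ends, whose ratio reflects RNA integrity, gave a 3'/5' ratio of 1.86 and 1.64 on the cAMP arrays, against 1.80 and 2.25 on control replicates 1 and 2, highest on the array where the members were highest. The same ratio for Gapdh ran the other way, at 0.930 and 0.937 on the cAMP arrays, against 0.966 and 0.903 on control replicates 1 and 2. The part of RNA integrity in the result was not tested.

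On the deposited signals, without further normalization, the direction was nevertheless present against either control array. Set against control replicate 1 alone, the cAMP mean had a median difference of -0.18 over the members, with 44 of 46 below 0. Both cAMP arrays lay below that control array in 42 of the 46 members. The same held for 8014 of all 18625 tested probe sets, and for 85 of the 143 bright ones of no ribosomal protein gene. Against control replicate 2 alone the median was -0.39. Counts of calls moved far more, in fits whose spread came from the pair left in the other group. Without control replicate 1, 37 members were lower (80.4%, against 12.7% of all tested probe sets in that fit) and 1 (Rpl7l1) higher by limma. Without control replicate 2, 5 were lower (10.9%, against 6.23% of all tested), with Rps3 and Rps15a joining the 3. In both of these fits the cAMP pair alone set the spread, and the members' median SE was 0.082 and 0.084, against 0.12 with all 4 arrays. Without cAMP replicate 1 the count was 0 by limma (5 at an unadjusted p under 0.05), and without cAMP replicate 2 it was 0 as well (2 at an unadjusted p under 0.05). There the control pair set the spread, the members' median SE was 0.20 in both fits, and 1.64% and 1.86% of all tested probe sets were lower.

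**Figure D4:**
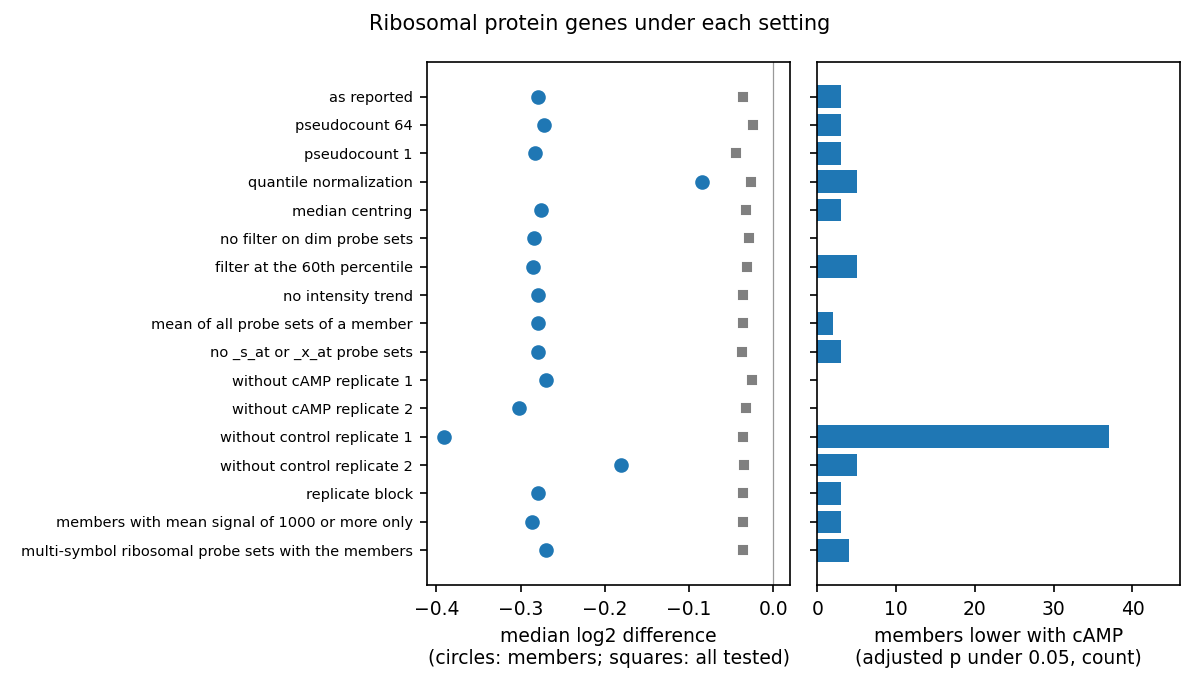
Median log2 difference of the ribosomal protein genes (circles) and of all tested probe sets (squares), and the count of members lower by limma, under each way of processing. The members' median stays below 0 in every setting shown, between -0.39 without control replicate 1 and -0.085 under quantile normalization, while the count runs from 0 to 37.

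Further probe sets of the same genes were dimmer and gave mixed values. Of the 48 members, 6 had more than 1 probe set, with 7 further probe sets in all, and 0 of the 7 passed by limma (1 higher and 0 lower at an unadjusted p under 0.05). The 2 other probe sets of Rpsa had differences of -0.21 ± 0.12 and -0.18 ± 0.12, close to the first. A second one of Rpl3, of the type that can cross-hybridise, went the other way: it read 284.7 and 260.7 in cAMP cells, against 136.3 and 232.2 in control cells (0.57 ± 0.24, adjusted p by limma = 0.171). The 30 probe sets with several ribosomal protein symbols, which measure genes with close copies or pseudogenes, are outside the rule. Of them 27 had a negative difference, and the median was -0.26. Both cAMP arrays lay below both control arrays in 26 (86.7%, against 31.1% of all tested probe sets). By limma 1 of these 30 probe sets was lower (3.33%, against 6.39% of all tested). They share arrays with the members and so are no independent replicate. Of the 3 with a positive difference, 1 had both cAMP arrays above both control arrays, with a difference of 0.29, and it did not pass. At an unadjusted p under 0.05 by limma, 12 of the 30 were lower (40%, against 14.5% of all tested probe sets) and 1 higher.

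Genes that act with the ribosome were described by list, and no list was tested as a set. Among all 18625 tested probe sets, 2705 were lower and 2585 higher at an unadjusted p under 0.05 by limma. Of 37 tested initiation factor genes, 4 were lower (10.8%, against 6.39% of all tested probe sets) and 0 higher by limma, with a median of -0.077. At an unadjusted p under 0.05 by limma, 4 were lower and 4 higher. The 4 that passed were the eIF3 subunit genes Eif3m and Eif3h, Eif4b and Eif1ax. The product of Eif4b assists the eIF4A helicase, and Eif1ax serves start codon selection. Eif3m had 2747 and 2565 in cAMP cells, against 3866 and 4322 in control cells (-0.62 ± 0.11, adjusted p by limma = 0.0126). Eif4b had 791.3 and 780.3 in cAMP cells, against 1131 and 1228 in control cells (-0.57 ± 0.12), and Eif1ax (-0.66 ± 0.14) and Eif3h (-0.48 ± 0.13) were similar in size. Eif3c (0.67 ± 0.18, adjusted p by limma = 0.0511) and the cap-binding factor gene Eif4e (0.46 ± 0.16) did not pass, with positive differences. A pseudocount of 64, median centring or a filter at the 60th percentile each left 1 initiation factor gene higher by limma. So did the replicate number as a block. Of 14 tested elongation and termination factor genes and their partners, 2 were lower (14.3%) and 0 higher by limma, with a median of -0.15. At an unadjusted p under 0.05 by limma, 4 were lower (28.6%) and 1 higher. With the filter at the 60th percentile 1 gene of this list was higher by limma. Eef1d, an exchange factor subunit of elongation factor 1, had 865.7 and 907.6 in cAMP cells, against 1633 and 1507 in control cells (-0.81 ± 0.12, adjusted p by limma = 0.00540). Eef1e1 was the other (-0.54 ± 0.14). Eef1g (-0.36 ± 0.10) and Naca (-0.44 ± 0.13) did not pass, nor did the release factor gene Etf1 (0.51 ± 0.14). Leaving out either cAMP array removed all 6 calls among translation factors, with differences about as large (-0.67 and -0.57 for Eif3m without cAMP replicates 1 and 2, -0.78 and -0.85 for Eef1d). Without the intensity trend Eef1d alone of the 6 passed, and without the filter Eif3m, Eif3h and Eef1e1 did not; Eif3h did not with a pseudocount of 1 either.

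Genes for ribosome assembly were described in the same way. Of 101 tested assembly factor genes 6 were lower (5.94%, near the 6.39% of all tested probe sets) and 0 higher by limma, with a median of -0.12. At an unadjusted p under 0.05 by limma, 12 were lower (11.9%, against 14.5% of all tested probe sets) and 4 higher. With the replicate number as a block 1 was higher by limma. Rrp1b, a nucleolar protein gene, had 112.8 and 140.2 in cAMP cells, against 298.5 and 300.7 in control cells (-1.15 ± 0.17, adjusted p by limma = 0.00499). Nmd3, the adaptor for nuclear export of the large subunit, had 378.3 and 303.6 in cAMP cells, against 603.0 and 602.4 in control cells (-0.80 ± 0.16). Nop53 (-0.67 ± 0.13), the helicase gene Ddx51 (-0.84 ± 0.16), Rrs1 (-0.74 ± 0.17) and the snoRNP gene Nop58 (-0.60 ± 0.16) were lower as well. None of these 6 passed without cAMP replicate 1, Rrp1b alone passed without cAMP replicate 2, and Nop58 was also lost without control replicate 2. The differences ranged over these 2 fits from -1.29 to -1.01 for Rrp1b, from -0.95 to -0.65 for Nmd3 and from -0.78 to -0.41 for Nop58. Nop58 did not pass either with a pseudocount of 1, with median centring, without the filter or without the trend, Rrs1 did not without the filter, and Nop53 did not without the trend. Of 31 genes of RNA polymerases I and III and their factors, which make rRNA and tRNA, 0 passed by limma (1 higher and 4 lower at an unadjusted p under 0.05), with a median of -0.10. Maf1, a repressor of RNA polymerase III, was nearest to the threshold, at 546.2 and 499.9 in cAMP cells against 774.4 and 710.9 in control cells (-0.49 ± 0.13, adjusted p by limma = 0.0537).

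A list around mTORC1 held its subunits and regulators, genes named as S6 kinases (Rps6k), and others such as Myc, Mycn, Max and Maf1. Of its 31 tested genes, 2 were lower (6.45%, near the 6.39% of all tested probe sets) and 1 higher by limma, with a median of -0.064. Among all tested probe sets 7.29% were higher. Eif4ebp2, an inhibitor of cap-dependent initiation, had 319.9 and 408.5 in cAMP cells, against 585.7 and 714.6 in control cells (-0.81 ± 0.17, adjusted p by limma = 0.0233). Rragd, a GTPase through which amino acids act on mTORC1, was lower (-0.70 ± 0.17). Rps6ka5, which encodes the kinase MSK1, had 231.4 and 313.6 in cAMP cells, against 60.9 and 133.2 in control cells (1.41 ± 0.32, adjusted p by limma = 0.0267). The 3 calls were lost when either cAMP array was left out, with differences of 1.62 and 1.21 for Rps6ka5, -0.69 and -0.70 for Rragd and -0.64 and -0.98 for Eif4ebp2. They were also lost without the filter on dim probe sets, and that of Eif4ebp2 without the trend. Tsc1 (-0.59 ± 0.16) and Pdcd4 (-0.47 ± 0.13) did not pass. No gene of the 5 listed for ubiquitin and its ribosomal fusions had a probe set with a single symbol here.

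**Figure D5:**
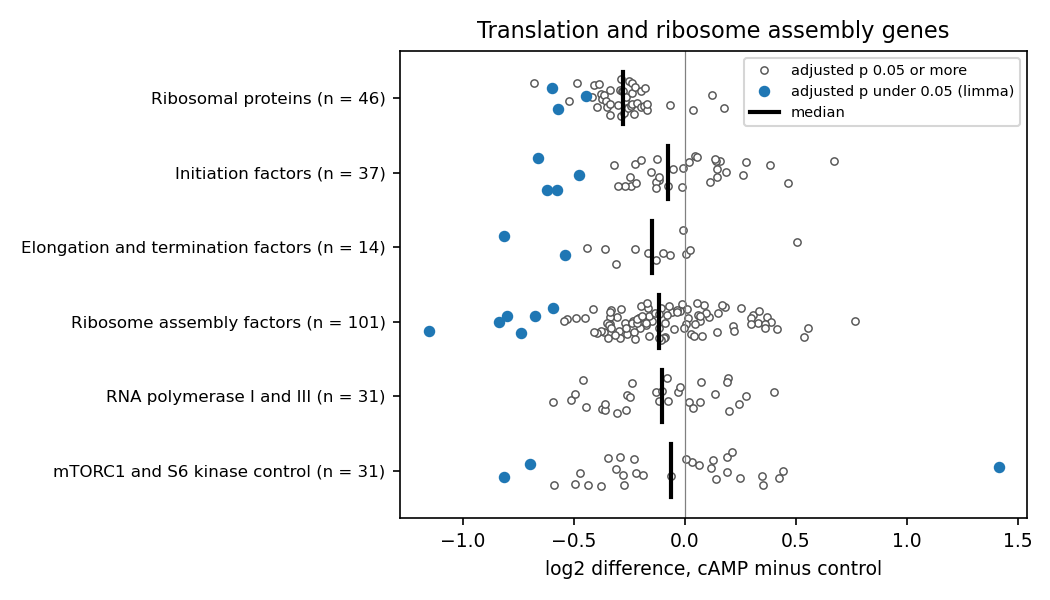
Each point is the log2 difference, cAMP minus control, of 1 tested gene, in ribosomal protein genes and in 5 lists of genes that act with the ribosome, with bars at the medians. The medians are -0.28 for ribosomal proteins and -0.15 to -0.064 for the other lists. Under quantile normalization the ribosomal protein median is -0.085, within the range of -0.11 to -0.068 of the other lists.

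The labelled cell type was checked on its markers. Sertoli cell genes Wt1 (1592 and 1862 in cAMP cells, 1532 and 1452 in control cells) and Clu (6072 and 6410 in cAMP cells, 6858 and 7278 in control cells) were well above background on every array. Neither passed. Of 14 listed Sertoli markers, 4 had no probe set with a single symbol. Krt18 was below the filter, with 11.0 and 7.2 in cAMP cells, against 38.2 and 21.5 in control cells. Of the 9 tested, 3 were higher and 2 lower by limma. Among all tested probe sets 7.29% were higher and 6.39% lower. Inha (2.04 ± 0.15), the inhibin alpha subunit gene, Dhh (0.74 ± 0.14) and Shbg (0.69 ± 0.18) were higher, and Gata4 (-0.94 ± 0.12) and Aard (-0.51 ± 0.13) were lower. The calls of Shbg and Aard were lost under quantile normalization, without the filter and without the intensity trend. Peritubular myoid markers summed to 200.6 and 241.4 in cAMP cells, against 652.0 and 505.6 in control cells, with Tagln and Synpo2 lower and Des higher among 6 tested. The call of Synpo2 was lost with a pseudocount of 64, without the filter and without the trend. Tagln read 1.3 and 7.4 in cAMP cells, against 344.5 and 264.3 in control cells, and without it the sums were 199.3 and 234.0 in cAMP cells, against 307.5 and 241.3 in control cells. Endothelial markers summed to 107.1 and 104.3 in cAMP cells, against 241.8 and 166.9 in control cells, with Kdr lower among 2 tested and Pecam1, Vwf, Emcn and Tie1 at background on all arrays. Macrophage markers summed to 242.1 and 267.9 in cAMP cells, against 254.6 and 383.7 in control cells, with Cd163, Ptprc and Tyrobp at background. Of 3 tested, 2 had a difference below 0 and 0 passed by limma (1 lower at an unadjusted p under 0.05). Cd68 went the other way but was below the filter, with 28.1 and 45.2 in cAMP cells, against 4.1 and 6.2 in control cells. Germ cell markers summed to 4740 and 3466 in cAMP cells, against 5037 and 4183 in control cells. Of 6 tested, 0 passed by limma (0 at an unadjusted p under 0.05). Sycp3 was well above background, with 2258 and 1754 in cAMP cells, against 2340 and 2298 in control cells. So was Ldhc, with 659.7 and 427.4 in cAMP cells, against 811.6 and 627.2 in control cells. The spermatid genes Prm1, Tnp1 and Acrv1 were at background. Leydig markers summed to 3459 and 2926 in cAMP cells, against 176.0 and 139.0 in control cells, with Cyp17a1, Hsd3b1 and Lhcgr at background. Star, the 1 of 2 tested that was higher, made up nearly all of the sum in cAMP cells (3369 and 2853). In control cells it read 81.0 and 48.9. Of the marker calls, those of Inha, Star and Tagln held when either cAMP array was left out, and the others did not. The part of other cells in the ribosomal protein result was not tested.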

How the data were processed

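The deposited values are linear intensities, 1 for each probe set. The submitters' processing notes name GCOS and MAS5 as tools, with no version or setting in the sources read here. The mean after removal of the lowest and highest 2% of values was 125.0 on every array, so the arrays were on a common scale. From these intensities log2(signal + 16) was computed. Of 31042 probe sets other than controls, the 18625 whose mean log2 value reached the 40th percentile (5.10) entered a fit of both groups by limma (version 3.58.1, R 4.3.3), with two-sided tests, an intensity trend and a threshold of 0.05. Fits were tested on simulated data. Errors of differences are standard errors from limma. The members and gene lists were chosen with earlier results of these data known. Named members were those past the threshold, the 8 most positive and 8 most negative differences, the 5 brightest, the 3 dimmest, Rplp0, Rpsa, paralogs with their parent genes, and genes whose probe sets disagreed; named list genes were up to 6 per list by smallest p. Other genes, such as Rps3, Rps6 and Rpl11, were chosen after their values were seen. Symbols of 20764 of 20832 single-symbol probe sets were matched to RefSeq. The files used here give no scan dates or batches, and the small number of arrays limits precision.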

Additional observations from a re-analysis of the deposited data

How the results depend on the processing

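The members' median log2 difference stayed below 0 in all settings run, and it moved beyond the spread between arrays under quantile normalization (-0.085) and without control replicate 1. With 1 array left out it ranged from -0.39 to -0.18, members lower from 0 to 37, members higher from 0 to 1, probe sets higher from 408 to 2419 and probe sets lower from 305 to 2371. The count of members lower was 3 as reported, 5 under quantile normalization, 5 with the filter at the 60th percentile, 0 by limma without the filter (16 at an unadjusted p under 0.05) and 0 by limma without the intensity trend (5 at an unadjusted p under 0.05). Without the filter 873 probe sets were higher and 725 lower, where 31042 were tested. Where no share over all probe sets in the same setting is given, the counts in this section are not read against a background. Under quantile normalization Rpl13a (0.073), Rpl3 (0.066), Rpl6 (0.030), Rps23 (0.083) and Rps29 (0.022) changed sign, as did Rpl3 (0.19) with the mean of all its probe sets. Differences that also changed sign with 1 array left out were those of Rps4y2 (-0.11 to 0.19, below 0 without cAMP replicate 1), Rps27l (-0.16 to 0.037, above 0 without cAMP replicate 2), Rpl7l1 (-0.19 to 0.54), Rps13 (-0.023 to 0.27) and Rps23 (-0.36 to 0.012), the last 3 without control replicate 2. The cause was not tested. A pseudocount of 64 or 1, median centring and leaving out cross-hybridising probe sets kept the count at 3. The labels give both groups replicates 1 and 2, but no shared preparation; deviations of same-numbered arrays correlated at 0.16 over probe sets, and with the replicate number as a block 3 members were lower and 0 higher by limma (25 and 0 at an unadjusted p under 0.05), with a median of -0.28. After the data were seen, bright members alone (median -0.29) and members with the several-symbol probe sets (median -0.27) were also run.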
